A study of Homo sapiens with 4 samples.

Results

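The genes described here are the autosomal collagen, laminin and integrin genes, taken from the protein-coding genes of GENCODE on hg19 by their symbols. Collagens were symbols made of COL, a number, A and a number, laminins were LAMA, LAMB or LAMC with a number, and integrins were symbols that start with ITGA or ITGB, leaving out the ITGB1BP genes. The rule gave 82 genes of 19229, of which 42 were collagens, 12 were laminins and 28 were in the integrin group. Both of the genes in that group that encode no integrin subunit, ITGB3BP, a centromere protein, and ITGBL1, an integrin beta-like secreted protein, were kept because the rule takes them. COL4A5 and COL4A6 lie on the X chromosome and were not covered.

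H3K27ac HiChIP was performed in M14, a human melanoma cell line in which STAG2, a cohesin subunit, can be knocked down by a short hairpin RNA that doxycycline switches on. The STAG2-KD cells had received doxycycline for 5 days and the WT cells were the same line without it, so WT names the uninduced line and doxycycline itself and STAG2 knockdown cannot be told apart. HiChIP ligates pieces of chromatin that are close together and enriches them with an antibody, here one against acetylated lysine 27 of histone H3, a mark of active promoters and enhancers. The labels gave 2 samples per group, and 1 list of H3K27ac-associated loops per group was analysed.

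Collagens, laminins and integrins are the main parts of the contact between a cell and the matrix around it. Fibrillar collagens form the fibres of connective tissue, type IV collagen and laminins form the network of basement membranes, and type VII collagen anchors the basement membrane of the skin to the dermis. A laminin is a trimer of an alpha, a beta and a gamma chain. An integrin is a pair of an alpha and a beta subunit that binds collagens, laminins, fibronectin or ligands on other cells, and in melanoma the integrin of alpha V and beta 3 is well known from the switch to invasive growth.

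There were 27289 loops in WT and 25621 in STAG2-KD, and 10381 had the same 5 kb anchors in both. Without read counts in the lists, the depth behind a loop is unknown, and a loop missing from a list may lie just short of the caller's limit. With 1 list per group there was no replicate check of any difference, and no p-value was computed. The lists do not measure STAG2 itself, so the knockdown could not be checked in them. The intervals given are exact binomial 95% intervals (Clopper-Pearson) that cover counting only, and loops of one gene that share an anchor are not independent. Of 7 melanocyte marker genes (MITF, SOX10, PMEL, MLANA, TYR, DCT and TYRP1), 6 had a loop at a transcript start in WT and 5 in STAG2-KD, with TYR at 0 in both lists. Over all autosomal protein-coding genes 39.1% and 36.8% had one. Summed over these markers there were 26 gene-loop pairs in WT and 16 in STAG2-KD, and the part of this difference in the results below was not tested. The markers did not move together. Counts in WT and STAG2-KD were 7 and 2 for MITF, 7 and 4 for PMEL, 3 and 0 for DCT and 2 and 1 for TYRP1. SOX10 had 4 in each list, and MLANA had 3 and 5.

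A loop was counted for a gene when any annotated transcript start of the gene lay in one of its anchors. The canonical start, that of the transcript Ensembl ranks first, is treated as well for genes described singly where the count differed. For genes named only in groups it is not given. The promoters of LAMC1 and ITGB1 are shown because their canonical starts carried one of the largest differences between the lists (LAMC1, with 1 loop in WT and 7 in STAG2-KD) and an equal count in both (ITGB1, with 4 loops in each). Each is the 250 bases before the most upstream start near the canonical one, on hg19 and in the direction of transcription, at chr1:182992305-182992554 on the plus strand for LAMC1 and chr10:33247254-33247503 on the minus strand for ITGB1. Capitals mark matches on either strand to GGGCGG, the core of the GC box bound by SP1, and to GGAATG, a core bound by TEAD factors.
LAMC1: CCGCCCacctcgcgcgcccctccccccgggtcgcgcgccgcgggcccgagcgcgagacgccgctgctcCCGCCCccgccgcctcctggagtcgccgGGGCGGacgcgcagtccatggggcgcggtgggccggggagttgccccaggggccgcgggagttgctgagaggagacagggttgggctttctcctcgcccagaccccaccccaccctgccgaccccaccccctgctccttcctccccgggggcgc
ITGB1: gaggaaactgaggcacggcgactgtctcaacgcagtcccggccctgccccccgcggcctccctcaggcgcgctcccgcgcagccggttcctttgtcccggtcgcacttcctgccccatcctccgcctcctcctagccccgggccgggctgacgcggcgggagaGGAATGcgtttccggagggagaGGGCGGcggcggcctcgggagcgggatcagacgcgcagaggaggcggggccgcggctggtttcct

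Both promoters held a GC box, and that of ITGB1 also held GGAATG. GC boxes were common everywhere: 57.3% of member promoters and 52.3% of 18977 promoters of protein-coding genes held one. GGAATG was found in 14.6% of member promoters and 10.5% of all. Of the other motifs searched on both strands, the AP-1 core TGANTCA was found in 3.66% of member promoters and 4.91% of all, TATAAA in 11.0% and 9.80%, the E-box CACGTG in 1.22% and 7.19%, and the E-box CATGTG in 2.44% and 7.51%. CpG content was lower at looped members than at looped genes in general. The median ratio of observed to expected CpG was 0.53 in the 22 member promoters with a loop at the canonical start, against 0.80 in all 7191 such promoters. In members without such a loop it was 0.61, close to the 0.58 of all genes without one. These matches describe the letters of the window and not the binding of a factor.

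With any annotated start counted, laminin and integrin genes carried loops more often than collagen genes. At least 1 loop was found at 32 of the 82 members in WT (39.0%, 28.4 to 50.4) and at 31 in STAG2-KD (37.8%, 27.3 to 49.2), against 39.1% and 36.8% of all autosomal protein-coding genes. In either list 39 members had a loop (47.6%), against 44.5% of all genes. Of the 42 collagens, 10 had a loop in WT (23.8%, 12.1 to 39.5) and 9 in STAG2-KD (21.4%, 10.3 to 36.8). Of the 12 laminins the counts were 6 and 7, and of the 28 integrins they were 16 (57.1%, 37.2 to 75.5) and 15 (53.6%, 33.9 to 72.5). The share of all genes lay inside each of these WT intervals, near the upper end for collagens, and in STAG2-KD it lay at the upper bound of the collagen interval.

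**Figure D1:**
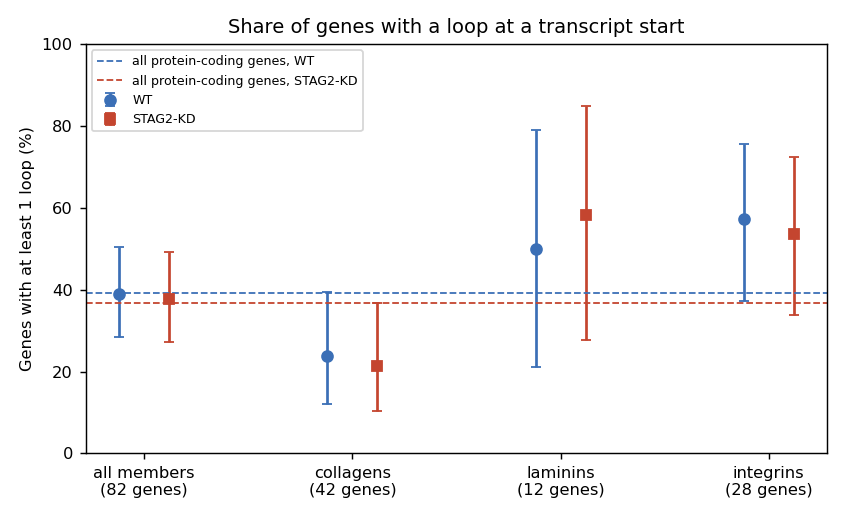
Percent of genes with at least 1 loop at a transcript start, for all members and by family, in WT (circles) and STAG2-KD (squares), with exact binomial 95% intervals; dashed lines give the share over all autosomal protein-coding genes, 39.1% in WT and 36.8% in STAG2-KD. Collagens sit lowest, at 23.8% and 21.4%, and the laminin and integrin intervals are wide.

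Members offered more starts than other genes, with a median of 5 bins that hold a start and a length of 90.6 kb, against 2 bins and 27.6 kb over all protein-coding genes. With the canonical start alone, 18 members had a loop in WT (21.95%, 13.6 to 32.5) and 14 in STAG2-KD (17.1%, 9.66 to 26.98), against 32.7% and 30.5% of the genes with such a start. Both intervals lay below the share of all genes, in WT only just. Collagens were still the family with the lowest share at the canonical start, but by less. Integrins were only slightly above them in STAG2-KD. Loops at the canonical start made up 58 of the 155 distinct gene-loop pairs of members, at 22 genes.

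Most of the member loops in each list lay at 10 genes. The 10 genes with the most distinct loops were LAMC1 with 14, LAMB2 with 12, ITGAL with 10, COL6A3 with 9, COL7A1, ITGB1, ITGB3 and ITGB5 with 8 each, and LAMA2 and LAMA3 with 7 each. Together these genes carried 54 of the 94 member loops in WT (57.4%) and 61 of the 100 in STAG2-KD (61%). They were picked by their loop counts, so a large share is partly built in. Members with a loop in a list had a median of 3 loops in WT and 2 in STAG2-KD, against 2 and 2 over all genes. The largest counts were 9 and 12, against 44 and 42. A further 9 members had 3 to 6 distinct loops (ITGA3, COL2A1, ITGA7, ITGB3BP, LAMB3, ITGA10, ITGA5, ITGAM and LAMA1), and 20 had 1 or 2.

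**Figure D2:**
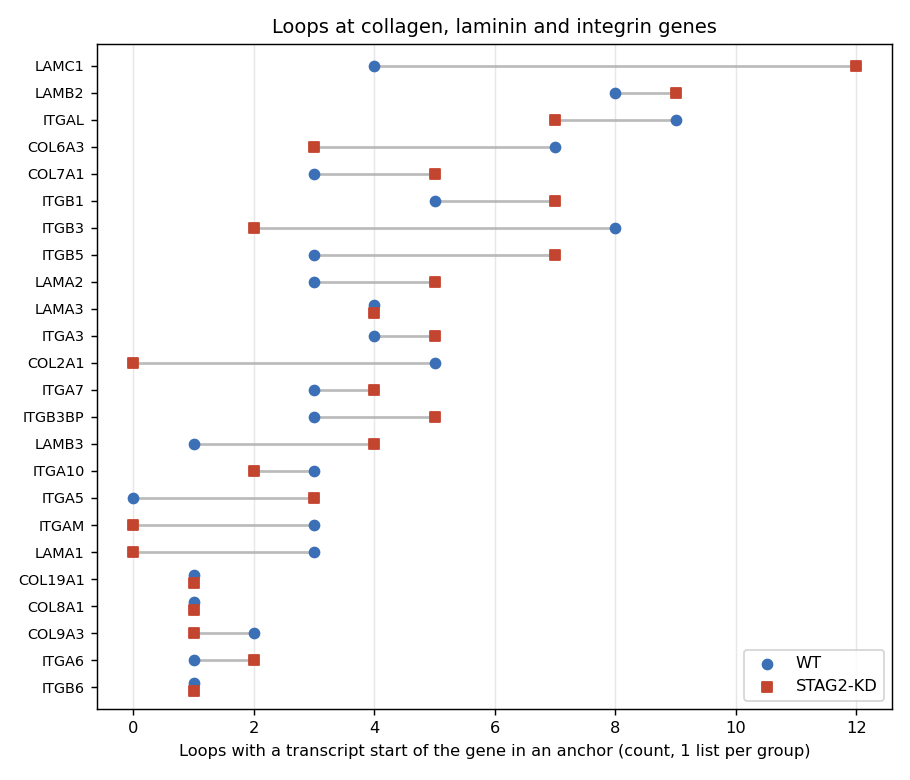
Number of loops with a transcript start of the gene in an anchor, for the 24 members with at least 2 distinct loops, in WT (circles) and STAG2-KD (squares), ordered by distinct loops; there is 1 list per group and no error bar. LAMC1 moves from 4 to 12 and ITGB5 from 3 to 7, whereas ITGB3 moves from 8 to 2, COL6A3 from 7 to 3 and COL2A1 from 5 to 0.

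Members with more loops and members with fewer loops in STAG2-KD were similar in number. Of the 39 members with a loop, 18 had more loops in STAG2-KD (46.2%, 30.1 to 62.8), 13 had fewer (33.3%, 19.1 to 50.2) and 8 had equal counts, against 34.4% and 43.4% of all 8564 genes with a loop. With any annotated start counted, the balance thus lay the other way from that over all genes, but both backgrounds fell inside the members' intervals. It was not kept at the canonical start alone, where members with fewer loops in STAG2-KD slightly outnumbered those with more. The member total there fell from 38 to 34, whereas over any start it rose from 94 to 100. Again over any start, a loop in WT and none in STAG2-KD was found at 8 members, against 17.3% of all genes with a loop. A loop in STAG2-KD and none in WT was found at 7 members, against 12.3%. Genes were also marked where 1 list had at least 5 loops and at least 2 times as many as the other. By this rule LAMC1 and ITGB5 were higher in STAG2-KD, 2 of 39 members against 2.88% of all genes. ITGB3, COL6A3 and COL2A1 were lower, 3 of 39 against 3.63%. With WT counts scaled to the smaller STAG2-KD list, 2 were lower, since COL2A1 then had 4.69 loops in WT, and with the canonical start or starts of protein-coding transcripts alone COL2A1 had 4 and 0 and missed the rule. Both counts were near their background, so the values below describe single loci and not the families.

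LAMC1, the gamma 1 chain found in most laminins, showed the largest difference of any member over the whole lists. In the earlier 50% of each list's lines, whose order the lists do not explain, it had 4 loops in WT and 4 in STAG2-KD. Of the other marked genes, ITGB3 had 6 and 1 loops in those lines and ITGB5 had 3 and 6. COL6A3 had 4 and 1, and COL2A1 had 3 and 0. LAMC1 lies at chr1:182992555-183114727 on the plus strand and had 4 loops in WT and 12 in STAG2-KD, and 2 of them were shared. Its canonical start, in the anchor at chr1:182990001-182995000, had 1 loop in WT and 7 in STAG2-KD, and an internal start at chr1:183065001-183070000 had 3 and 5. All 10 STAG2-KD-only loops ran downstream, over 20 to 245 kb, whereas both WT-only loops ran upstream, over 125 and 95 kb. The shared loops were both 20 kb long. The longest of the STAG2-KD-only loops, of 245 kb, ended inside NMNAT2, a neuronal NAD synthesis enzyme. No member loop joined starts of 2 members. Loops within 500 kb of LAMC1 that did not touch its starts were also more frequent in STAG2-KD, at 11 against 5 in WT. The canonical anchor held a match to the CTCF core, as did 5 of 60 member start anchors (8.33%, 2.76 to 18.4) and 5.61% of all anchors.

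Among the beta and alpha laminin chains, LAMB2, the beta 2 chain of synaptic and kidney basement membranes, was looped about equally in both lists. It had 8 loops in WT, 9 in STAG2-KD and 5 in common. Its canonical start anchor at chr3:49170001-49175000 had 4 and 5 loops, and the anchor at chr3:49155001-49160000, which also holds a start of USP19, had 4 in each. With starts of protein-coding transcripts alone LAMB2 had 4 loops in WT and 5 in STAG2-KD. The LAMB2 partners were gene starts in 11 of 12 loops, among them DALRD3 and NDUFAF3, IMPDH2, QRICH1 and CCDC71 in shared loops, and USP4 at 205 kb and NICN1 at 295 kb only in STAG2-KD. LAMB3, a chain of laminin-332 in the skin, had 1 loop in WT, from its canonical start to TRAF3IP3 over 115 kb, and 4 in STAG2-KD, all from the neighbouring bin at chr1:209820001-209825000 over 25 to 70 kb.

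The alpha chains differed in where their loops lay. LAMA1, the alpha 1 chain of early embryonic basement membranes, had 3 loops in WT, all from the canonical start into its own body over 25, 35 and 80 kb, and none in STAG2-KD. Loops within 500 kb of LAMA1 that did not touch its starts numbered 15 in WT and 7 in STAG2-KD. LAMA2, the chain of muscle basement membrane, had 3 loops in WT and 5 in STAG2-KD, all from internal starts near the 3′ end of the gene and none from the canonical start. The longest of them reached L3MBTL3 over 530 kb in STAG2-KD only. LAMA3, the alpha chain of laminin-332, had 4 loops in each list but only 1 shared. Its canonical start had 0 loops in WT and 1 in STAG2-KD.

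ITGB3, the beta 3 subunit that pairs with alpha V and with platelet alpha IIb, had the largest difference in the other direction. It lies at chr17:45331193-45391109 on the plus strand and had 8 loops in WT and 2 in STAG2-KD, all from the canonical start anchor at chr17:45330001-45335000. That anchor also holds a start of an overlapping readthrough gene, ENSG00000259753, so the loops cannot be assigned to ITGB3 alone. The shared loops ran 50 kb upstream into MYL4 and 40 kb downstream into the gene itself. The 6 WT-only loops reached CDC27 at 65 kb, a site 20 kb upstream, 2 sites in the gene at 25 and 60 kb, EFCAB13 at 75 kb and KPNB1 at 395 kb. The anchor remained in the STAG2-KD list through its shared loops. When starts within 5 kb of an anchor were accepted, ITGB3 had 11 loops in WT and 6 in STAG2-KD, a difference that no longer met the rule. Loops within 500 kb of ITGB3 away from its starts numbered 9 in WT and 14 in STAG2-KD.

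ITGB5, the beta 5 subunit that also pairs with alpha V, had 3 loops in WT, 7 in STAG2-KD and 2 in common. The gene lies at chr3:124480795-124620265 on the minus strand. No loop lay at its canonical start. The anchor at chr3:124595001-124600000 had 3 loops in WT and 5 in STAG2-KD. Of the 5 STAG2-KD-only loops, 4 stayed within the gene over 20 to 60 kb and 1 reached into KALRN over 320 kb, whereas the WT-only loop reached the start of UMPS over 150 kb. With starts within 5 kb of an anchor the counts were 6 and 9, and the rule was not met.

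ITGB1, the beta subunit common to the collagen, laminin and fibronectin receptors, kept 4 of its 5 WT loops in STAG2-KD, where it had 7. In 5 of its 8 distinct loops both anchors lay in the gene, and 3 of these joined starts of ITGB1 to each other over 20, 45 and 65 kb. The longer loops in STAG2-KD ran 205 and 255 kb upstream, the latter into NRP1, a co-receptor for semaphorins and VEGF.

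Among the alpha subunits, ITGAL, the alpha L subunit of the leukocyte integrin LFA-1, had the most loops, with 9 in WT, 7 in STAG2-KD and 6 in common. None lay at its canonical start. Most came from an internal start in the anchor at chr16:30500001-30505000, with 8 and 7 loops. Over all ITGAL loops the partner was a start of a neighbouring gene in 7, among them SEPHS2, ZNF768, ZNF747, ZNF688, ZNF785 and PRR14, and held no such start in 3. With starts of protein-coding transcripts alone ITGAL had 1 loop in WT and 0 in STAG2-KD, and ITGAM had 0 in both. ITGAM, the leukocyte alpha M subunit, had 3 loops in WT at an internal start, 1 of them to PYCARD over 70 kb, and none in STAG2-KD. ITGA5, the fibronectin-binding alpha 5 subunit, had none in WT and 3 in STAG2-KD at its canonical start. These reached a bin with a HOXC4 start over 400 kb, a site with no start over 200 kb, and another start of ITGA5 over 20 kb. By binding class, all 3 laminin-binding alpha subunits (ITGA3, ITGA6 and ITGA7) had a loop in each list. Of the 4 collagen-binding ones (ITGA1, ITGA2, ITGA10 and ITGA11), 4 had a loop in WT and 2 in STAG2-KD, and of the 4 RGD-binding ones 0 and 1 had. Over all genes 39.1% and 36.8% had one, and groups of this size allow no comparison. The laminin-binding subunits had 8 and 11 loops in WT and STAG2-KD, 6 of them in common, and the collagen-binding ones had 6 and 3, with 2 in common. An ITGA7 loop found only in STAG2-KD, chosen after its values were seen, ended 260 kb away in the bin that holds starts of PMEL, a melanosome protein, and RAB5B. The ITGA7 anchor also held starts of BLOC1S1.

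Among collagens, COL2A1, the chain of cartilage type II collagen, had 5 loops in WT and none in STAG2-KD. It lies at chr12:48366750-48398337 on the minus strand, and 4 of the loops came from the canonical start anchor at chr12:48395001-48400000. Partners included starts of HDAC7 at 180 kb, TMEM106C at 40 kb and SENP1 at 60 kb. Neither gene anchor was used by any loop of the STAG2-KD list, whereas 4 of the 5 partner anchors were. Loops within 500 kb that did not touch COL2A1 starts numbered 13 in WT and 14 in STAG2-KD, so the counts differed at its starts and by 1 loop around them.

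COL6A3, the alpha 3 chain of the beaded filaments of type VI collagen, had 7 loops in WT, 3 in STAG2-KD and 1 in common. The gene lies at chr2:238232646-238322971 on the minus strand. All came from an internal start in the anchor at chr2:238295001-238300000 and none from the canonical start. No protein-coding transcript starts in that anchor, and with starts of such transcripts alone COL6A3 had 0 loops in both lists. The shared loop reached COPS8 over 305 kb. A WT-only loop reached MLPH, which links melanosomes to the transport motor, over 95 kb. In 6 of the 9 loops the partner held no protein-coding start and lay outside COL6A3. In the 500 kb around the gene, loops away from its starts numbered 7 in WT and 14 in STAG2-KD.

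COL7A1, the chain of the anchoring fibrils, had 3 loops in WT and 5 in STAG2-KD, and none was shared. The anchor at chr3:48600001-48605000, at the 3′ end of the gene and also holding a start of UCN2, had 2 loops in WT and 5 in STAG2-KD. The canonical start had 1 loop in WT and none in STAG2-KD. Partners in STAG2-KD were starts of UQCRC1, SLC26A6, NCKIPSD and the CCDC51 and TMA7 pair, and in WT a start of CELSR3. Only the canonical anchor held a start of a protein-coding COL7A1 transcript, so that with such starts alone the counts were 1 and 0.

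**Figure D3:**
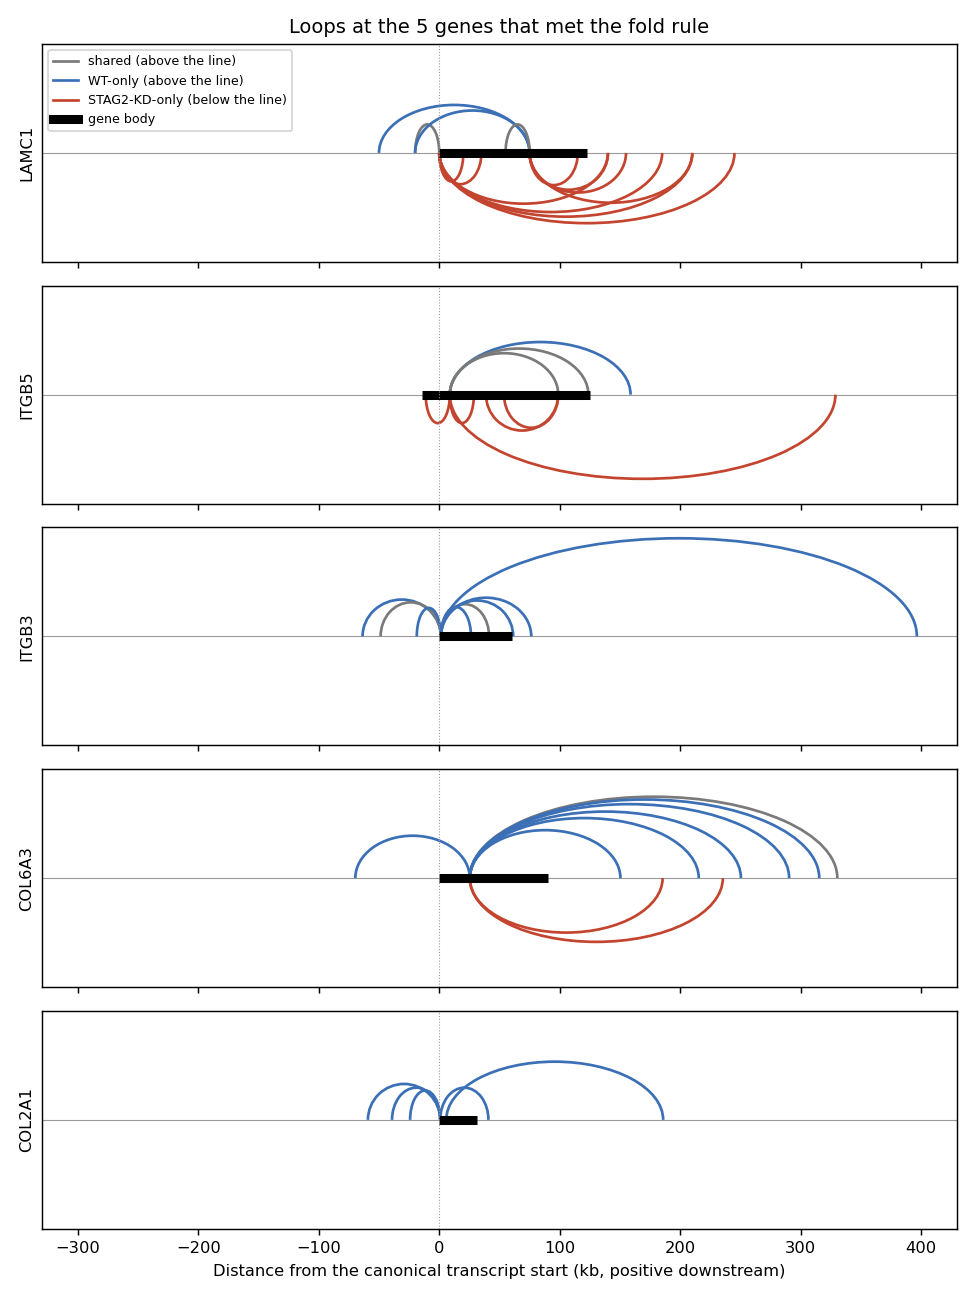
Loops at the 5 genes that met the fold rule, drawn as arcs between anchor midpoints by distance from the canonical transcript start in kb, positive in the direction of transcription; shared (grey) and WT-only (blue) loops are above the line, STAG2-KD-only (red) loops below it, and the black bar is the gene. Arc height follows distance only. All 10 STAG2-KD-only loops of LAMC1 run downstream, and ITGB3 and COL2A1 have no loop below the line.

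Integrins had the highest share of loops found in both lists. Members had 94 loops in WT and 100 in STAG2-KD, and the 39 found in both were 41.5% of the WT loops (31.4 to 52.1) and 39.0% of the STAG2-KD loops (29.4 to 49.3). Over all loops with a protein-coding start the shares were 41.2% and 43.4%. Integrins shared 26 loops, 54.2% of 48 in WT and 53.1% of 49 in STAG2-KD. Laminins shared 9, 39.1% of 23 and 25% of 36, and collagens shared 4, 17.4% of 23 (4.95 to 38.8) and 26.7% of 15 (7.79 to 55.1). The collagen interval in WT and the laminin interval in STAG2-KD (12.1 to 42.2) lay below the share of all starts. The other intervals held it, including those of integrins (39.2 to 68.6 in WT and 38.3 to 67.5 in STAG2-KD). Few loci weighed on the low shares. COL6A3, COL2A1 and COL7A1 gave 6, 5 and 3 of the 19 WT-only collagen loops, and LAMC1 gave 10 of the 27 STAG2-KD-only laminin loops. Few loci also weighed on the integrin share. Of the 26 shared integrin loops, ITGAL gave 6, ITGB1 gave 4, and ITGA3 and ITGB3BP gave 3 each, and ITGB3BP encodes no integrin subunit. At least 1 shared loop was found at 19 of the 39 members with a loop (48.7%), against 55.5% of all genes with a loop.

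**Figure D4:**
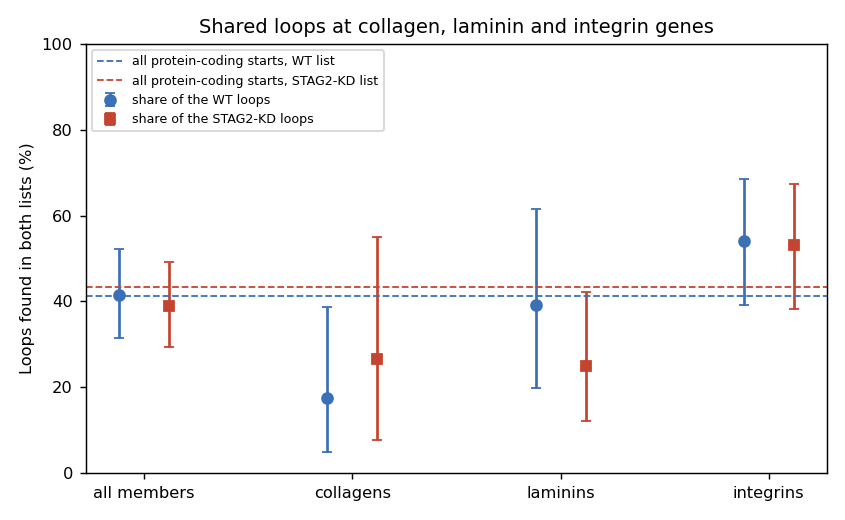
Percent of member loops found in both lists, as a share of the WT loops (circles) and of the STAG2-KD loops (squares), with exact binomial 95% intervals; dashed lines give the same shares over all loops with a protein-coding start, 41.2% and 43.4%. Integrins lie highest, at 54.2% and 53.1%, and collagens at 17.4% and 26.7%.

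The anchors of private loops were looked for in the other loops of the opposite list. Of the 55 WT-only loops, 20 had both anchors in use in the STAG2-KD list in other loops, 13 had only the gene anchor, 17 only the partner and 5 neither. Of the 61 STAG2-KD-only loops the counts were 23, 19, 9 and 10. Both anchors were thus in use for 36.4% (23.8 to 50.4) and 37.7% (25.6 to 51.0), against 47.8% and 50.8% of private gene-loop pairs over all genes, values that lie inside these intervals. At least 1 anchor was in use for 90.9% and 83.6%, against 92.8% and 93.7%. Neither was in use for 9.09% (3.02 to 19.95) of the WT-only and 16.4% (8.15 to 28.1) of the STAG2-KD-only loops. The matching share over all genes lay inside the first interval and below the second. All 4 STAG2-KD-only loops of LAMB3, which share an anchor, were among those 10 loops. Of the member start anchors, 45 were used in WT, 45 in STAG2-KD and 30 in both (66.7%, 51.0 to 80.0), against 72.6% and 76.7% over all protein-coding starts. A loop of the other list with both anchors within 2 bins was found for 6 of the WT-only and 7 of the STAG2-KD-only loops.

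Short loops made up more of the member loops than of loops at protein-coding starts as a whole. The median distance was 75 kb in WT (50 to 95) and 70 kb in STAG2-KD (45 to 100), against 90 and 85 kb, values that lie inside these intervals. The families differed, with a WT median of 110 kb for collagens, 80 kb for laminins and 60 kb for integrins, and without the integrins the WT median was 95 kb. Loops under 50 kb made up 39.4% of the WT member loops (29.4 to 50.0) and 41.0% of those in STAG2-KD (31.3 to 51.3), against 28.1% and 30.1% over all starts. Shared loops were the shortest, with a median of 45 kb (25 to 85) and 59.0% under 50 kb (42.1 to 74.4), against 75 kb and 34.4% over all starts. The interval of this median held the value over all starts, and that of the share lay above it. The median was 95 kb for WT-only loops (65 to 145) and 100 kb for STAG2-KD-only loops (60 to 145), and these intervals overlapped almost fully. No WT member loop was over 500 kb (upper limit 3.85%), against 3.19% over all starts, and 2 of 100 STAG2-KD loops were, against 4.25%. They were the LAMA2 loop of 530 kb and, named after its values were seen, a COL8A1 loop of 660 kb.

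**Figure D5:**
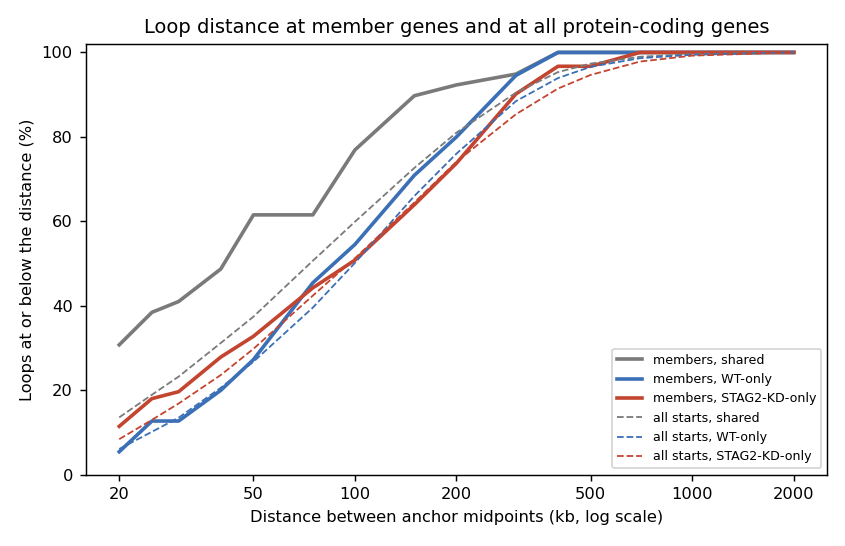
Cumulative percent of loops by distance between anchor midpoints in kb on a log axis, for members (solid) and all protein-coding starts (dashed), split into shared loops and loops private to either list. The curve of shared member loops rises first, with a median of 45 kb, and the curves of the private loops run close to those of all starts.

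Loops of member genes often stayed inside the gene. The partner anchor lay in the same gene for 25.5% of pairs in WT (17.1 to 35.6) and 29.0% in STAG2-KD (20.4 to 38.9), against 15.5% and 15.8% over all genes. It lay at another protein-coding start for 39.4% and 30.0%, against 48.7% and 47.1%, and at neither for 35.1% and 41.0%, against 35.8% and 37.1%. The own-gene share was higher than over all genes in both lists. The length of the genes moved with it, with a median of 86.6 kb in members with a loop against 31.2 kb in all genes with one, and its part was not tested. Own-gene loops were shared in 14 of 24 pairs in WT and 14 of 29 in STAG2-KD, and loops to other starts in 15 of 37 and 15 of 30, so that any contrast seen in WT was absent in STAG2-KD.

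Among the 20 members with 1 or 2 distinct loops, 5 had 2 (COL19A1, COL8A1, COL9A3, ITGA6 and ITGB6) and 15 had 1. Of the latter, 4 were shared (COL27A1, COL28A1, ITGA11 and ITGAE), 5 were WT-only (COL11A2, COL15A1, ITGA1, ITGA2 and ITGA4) and 6 were STAG2-KD-only, among them COL16A1, COL5A2, ITGB7, ITGBL1 and LAMB1.

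The 43 members with no loop at a start in either list were 30 collagens, 4 laminins and 9 integrins. They included the chains of type I and III collagen (COL1A1, COL1A2 and COL3A1), the autosomal chains of type IV collagen (COL4A1, COL4A2, COL4A3 and COL4A4), COL6A1 and COL6A2, and all transmembrane collagens (COL13A1, COL17A1, COL23A1 and COL25A1). The other collagens without a loop were COL5A1, COL5A3, COL6A5, COL6A6, COL8A2, COL9A1, COL9A2, COL10A1, COL11A1, COL12A1, COL14A1, COL18A1, COL20A1, COL21A1, COL22A1, COL24A1 and COL26A1. The laminins were LAMA4, LAMA5, LAMB4 and LAMC3, and the integrins were ITGAV, ITGA2B, ITGA8, ITGA9, ITGAD, ITGAX, ITGB2, ITGB4 and ITGB8. ITGAV, the alpha V partner of beta 3 and beta 5, thus had no loop at a start while ITGB3 and ITGB5 did. In 35 of the 43 no anchor of either list lay over the gene, and in 8 (COL14A1, COL17A1, COL8A2, ITGA9, ITGB4, ITGB8, LAMB4 and LAMC3) an anchor lay in the body only. An absent loop does not show an inactive gene, and expression was not measured in these lists.

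A set of 50 related genes of the matrix and its receptors was looked at beside the members. A loop was found at 33 in WT and 33 in STAG2-KD, where 39.1% and 36.8% of all genes had one. Of the 36 with a loop in either list, 15 had more loops in STAG2-KD and 11 had fewer, beside 34.4% and 43.4% of all genes with a loop. The rule of 2 times and 5 loops, which marked 2.88% of all genes with a loop as higher and 3.63% as lower, marked TNC, tenascin C, as higher with 3 loops in WT and 8 in STAG2-KD. It marked HSPG2, the basement membrane proteoglycan perlecan, as lower with 7 and 3, and LIMS1, an adaptor of the integrin-linked kinase, with 6 and 3. Of the collagen-processing enzymes and chaperones, 12 of 16 had a loop in each list, 7 with more and 5 with fewer in STAG2-KD. The receptors DDR1, DDR2 and CD44, which bind collagen or hyaluronan, had 8, 10 and 20 loops in WT and 13, 13 and 21 in STAG2-KD. The other listed receptors, DAG1, SDC1 and SDC4, had 0 in both lists. Of the 12 integrin adaptors and kinases, 1 had more loops in STAG2-KD and 4 had fewer. FN1, fibronectin, had 4 loops in each list, all shared, and ILK, the integrin-linked kinase, had 12 and 9, of which 9 were shared.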

How the data were processed

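Human M14 cells were profiled by H3K27ac HiChIP, with samples grouped by their titles. According to the methods, chromatin was cut with MboI and the authors aligned reads to hg19 with HiC-Pro, then called peaks with hichip-peaks and loops with FitHiChIP; versions of these tools are not given in the sources used here. The deposited lists hold, in the authors' files, base-pair positions in 3 columns (chromosome, start of the left anchor, end of the right anchor), no score, count or header. They are filed under replicate 1 of each group, and whether a list merges both replicates is not stated. The authors' separate diffloop comparison is not part of these lists.

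Anchors were read as 5 kb bins, 1 STAG2-KD line lay off this grid, and positions are printed counted from 1. Transcript starts were those of GENCODE 44 in its GRCh37 version, and promoter bases from the GRCh37 sequence. Shared loops occupy identical bins at both ends. Intervals of medians come from order statistics. The 10 members with the most distinct loops were described loop by loop, and the 5 with the largest difference in each direction and those with at least 5 loops in 1 list and 2 times as many as the other were named. Members, gene lists and rules were chosen with earlier results of these data known. Python 3.11.15 with numpy 2.4.6, scipy 1.17.1 and matplotlib 3.10.9 was used, and counting was tested on simulated data, in which all 500 planted genes were recovered. Some items are not reported here.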

Additional observations from a re-analysis of the deposited data

How the results depend on the processing

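The share of members with a loop depended on what counts as a start. In WT and STAG2-KD it was 28.0% and 25.6% with starts of protein-coding transcripts only, 23.2% and 19.5% with the gene start only, 21.95% and 17.1% with the canonical start, 52.4% and 51.2% with starts within 5 kb of an anchor, 51.2% and 52.4% with any anchor over the gene, and 28.0% and 26.8% with the earlier 50% of each list's lines. Loops numbered 53 and 62 with protein-coding transcripts, 38 and 34 with the gene start and again with the canonical start, 161 and 180 within 5 kb, and 46 and 50 with the earlier lines. Without the integrins, shared loops were 28.3% of WT and 25.5% of STAG2-KD. The WT median distance was 45 kb with the gene start and 47.5 kb with the canonical start, the WT-only median was 60 kb under both, and the STAG2-KD-only median was 162.5 kb with the canonical start. By the rule of 2 times and 5 loops, 1 member (LAMC1) was higher with the gene start and with the canonical start, and 1 was lower with protein-coding transcripts, the gene start and the canonical start. The own-gene share was 35.8% in WT and 40.3% in STAG2-KD with protein-coding transcripts and 36.8% in WT with the canonical start, and the share at another start in STAG2-KD was 21.0% and 20.6%.

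Of 264 such values, 225 were not marked as moved, but 42 of these left out a chromosome without a member loop and could not change. The margin was wide, with counts allowed to differ by up to 1.5 times. Unmoved values included a STAG2-KD-only median of 130 kb with the gene start, against 100 kb. They also included 70 WT loops with anchors without another gene start, against 94. With each of the 15 other chromosomes left out, none of 90 values moved, and the shared part ran from 39.3% to 44.05% of WT and from 35.5% to 44% of STAG2-KD. Of 210 values for single genes 69 moved, 20 with the gene start, 19 with the canonical start, 16 with the earlier lines, 10 with protein-coding transcripts and 4 within 5 kb. Canonical starts, gene bodies, anchors without another gene start and the group without ITGB3BP and ITGBL1 were chosen after seeing the data. No paired analysis was possible because there was 1 loop list for WT and 1 for STAG2-KD. Depth is unknown, so small counts of loops per gene are the least certain values.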
